A study of Mus musculus with 9 samples.

Results

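The alpha and beta tubulin isotypes described here are 10 of the 56748 genes in the deposited table. The 4 alpha isotypes are Tuba1a, Tuba1b, Tuba1c and Tuba4a, and the 6 beta isotypes are Tubb2a, Tubb2b, Tubb3, Tubb4b, Tubb5 and Tubb6. They were found by gene symbol and chosen by their levels in these same libraries, the normalized counts of days 1, 3 and 5, so their own differences between days are given as a description without p-values. RNA came from wild-type primary mouse airway basal stem cells, the progenitors of the tracheal epithelium, cultured at an air-liquid interface, on a porous membrane with medium below and air above. By their labels the 3 groups differed only in time in culture, with 3 libraries each on day 1, day 3 and day 5. The submitters name these stages proliferation, stratification and luminal specification. The labels give no age or strain of the animals and do not mention pooling. Nothing in the labels says whether libraries of a day came from separate cultures, so the errors below measure the spread between libraries, which may be technical.

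Alpha and beta tubulin pair into dimers, and the dimers polymerize into microtubules, which form the mitotic spindle, carry transport within the cell and build the axoneme of cilia. Isotypes of a family are nearly alike over the folded body and differ most in the acidic carboxy-terminal tail, where enzymes add or remove tyrosine, glutamate and glycine. Cells also limit their own tubulin mRNA: excess free dimer sets off decay of mRNAs being translated into tubulin, through TTC5, which reads the first residues of the nascent chain. In the airway, dividing basal cells build spindles, and multiciliated cells later build large numbers of axonemes, in which Tubb4b is a known beta isotype.

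The coding ends of the beta isotypes are shown first because they are where isotypes differ most and because they bear on how reads can be assigned. Below are the last 60 coding bases, stop codon included, of GENCODE M21 transcripts (GRCm38, coding strand). Capitals mark bases that differ from the aligned base of Tubb5 or that have no aligned base in it.
Tubb5: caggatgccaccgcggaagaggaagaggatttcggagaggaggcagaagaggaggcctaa
Tubb4b: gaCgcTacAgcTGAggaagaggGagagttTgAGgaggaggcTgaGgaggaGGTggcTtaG
Tubb2a: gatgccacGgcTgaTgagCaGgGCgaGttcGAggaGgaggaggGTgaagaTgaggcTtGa
Tubb2b: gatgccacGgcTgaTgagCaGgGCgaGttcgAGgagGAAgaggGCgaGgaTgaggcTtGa
Tubb3: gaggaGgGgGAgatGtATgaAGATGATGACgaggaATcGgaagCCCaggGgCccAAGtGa

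Tubb3, the isotype known as a marker of neurons, had the most capitals of the beta isotypes printed, with 29. Tubb2a, Tubb4b and Tubb2b had 16, 17 and 19. Inserted bases are part of these counts. Over the whole coding sequence Tuba1b shared 98.4% of aligned bases with Tuba1c and 98.3% with Tuba1a, whereas Tuba4a shared 85.3% to 85.9% with those 3. Tubb2a and Tubb2b shared 96.5%, and all other pairs of beta isotypes 81.1% to 86.5%. Alpha and beta isotypes shared 62.6% to 65.1%. The first 12 coding bases, the 4 codons whose residues the autoregulation sensor reads, were atgagggagatc in Tubb3 and Tubb4b, atgagggaaatc in Tubb5, atgcgcgagatc in Tubb2a and atgcgagagatc in Tubb2b.

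This likeness limits how far single isotypes can be told apart. Of all 100-base windows of the transcript, 73.0% of Tuba1b, 65.9% of Tuba1a and 53.4% of Tuba1c occurred unchanged in another gene. They shared windows with one another, with Gm49450 and with other genes. On the same strand, Gm49450 overlaps 26.2% of the exon bases of Tuba1a and 22.7% of those of Tuba1b. The figures for shared windows were 36.9% for Tubb2a and 27.8% for Tubb2b, mostly in each other. For Tubb4b the figure was 30.6%, mostly in its pseudogene Tubb4b-ps1. Tubb3, Tubb5 and Tubb6 had no such window. Tuba4a shared 46.7% of its windows with Stk16, a kinase gene on the opposite strand that overlaps all of its last 500 bases, and whether strand was used in counting is not stated in the labels. How reads with several matches were counted is not stated either, so the split between Tuba1a, Tuba1b and Tuba1c, and between Tubb2a and Tubb2b, is uncertain, and their sums are given beside them.

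Depth ran from 16.4 to 35.1 M reads per library, with a mean of 30.8 ± 4.29 M for day 1, falling to 21.9 ± 2.55 M for day 3 and 17.6 ± 1.51 M for day 5 (SD, n = 3). Values are normalized counts, the deposited values returned to the linear scale. All 10 isotypes passed the filter of at least 10 normalized counts in at least 3 libraries. The defining basal markers were present on each day: Krt5 was at 108199 ± 5696, 82486 ± 1709 and 38922 ± 5823 in the order of the days, Trp63 at 3811 ± 704, 1644 ± 155 and 2798 ± 472, and Krt15 at 62675 ± 3724, 302633 ± 29307 and 195601 ± 34885. The sum of all 6 basal and epithelial markers ran from 230062 to 245033, then 381359 to 436049, then 218376 to 298694. The summed level of 6 proliferation markers ran from 31525 to 37534 on day 1, 13810 to 15383 on day 3 and 3626 to 4071 on day 5, and all 6 fell at each step. The summed level of 12 multiciliated cell markers ran from 180 to 237, then 315 to 428, then 6153 to 7698. Of these 12, 7 passed the filter only through their day 5 libraries, 6 of them had no read on day 3, and the other 5 rose from day 3 to day 5. Of 11 markers of neurons and neuroendocrine cells the sum was 35.8 to 41.5, 42.5 to 65.6 and 333 to 412, with Nefl at 0 throughout and Nefm and Gap43 without a read on days 3 and 5. The leukocyte gene Tyrobp had no read in any library, Ptprc averaged at most 3.47 on any day, and the sum of 6 leukocyte markers, at 257 to 289, 1577 to 1733 and 152 to 195, was nearly all Cd68. The 8 endothelial, muscle and cartilage markers summed to at most 64.1, and the sum of 6 fibroblast markers was at most 14.9 on days 1 and 3 and 103 to 130 on day 5, nearly all of it Dcn. Day 1 also differed in sex-linked genes: Y-linked genes summed to 3137 ± 113, 324 ± 24.2 and 461 ± 98.3 on days 1, 3 and 5, and Xist was at 1825 ± 246, 5998 ± 507 and 7373 ± 1292. A difference between the animals of day 1 and those of the later days therefore cannot be told apart from time in culture.

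Tubulin mRNA as a whole was highest on day 1. The 10 isotypes summed to 105604, 126667 and 105765 normalized counts in the day 1 libraries, to 73012, 68283 and 70923 on day 3, and to 33942, 41939 and 44119 on day 5. The libraries of different days did not overlap. Per kilobase of exon, the scale on which genes are compared with each other here, the sum was 48016 ± 5233 on day 1, 30103 ± 958 on day 3 and 18185 ± 2487 on day 5, so that day 1 stood 2.64 times above day 5. As a share of all counts it was 0.527% ± 0.043, 0.275% ± 0.016 and 0.195% ± 0.016. The proliferation markers moved the same way over the 3 days, and their part in this was not tested. In bulk RNA, fewer cells of a type and less RNA per cell cannot be told apart.

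Of the 10 isotypes, 9 were called lower on day 3 than on day 1 and 0 higher, where 37.0% of all 17338 tested genes were called lower and 36.1% higher (73.0% either way) (limma, Benjamini-Hochberg adjusted p under 0.05 over all tested genes). From day 3 to day 5, 5 were called lower and 3 higher, beside 32.4% and 34.8% of all genes (67.3% either way). From day 1 to day 5, 9 were called lower and 0 higher, beside 37.7% and 36.7% (74.5% either way). The 3 libraries of the earlier and later day did not overlap for 9 isotypes lower and 0 higher in the first step (39.4% and 37.9% of all genes), 5 lower and 3 higher in the second (34.2% and 36.8%) and 10 lower from day 1 to day 5 (38.9%; 38.0% higher). These counts describe the chosen genes only. The median log2 difference of the 10 isotypes was -0.84, -0.43 and -1.60 for the steps from day 1 to 3, day 3 to 5 and day 1 to 5, and over all tested genes it was 0.00, 0.06 and -0.06. With quantile normalization the isotype median from day 3 to 5 was 0.065, where that of all genes was 0.001.

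**Figure D1:**
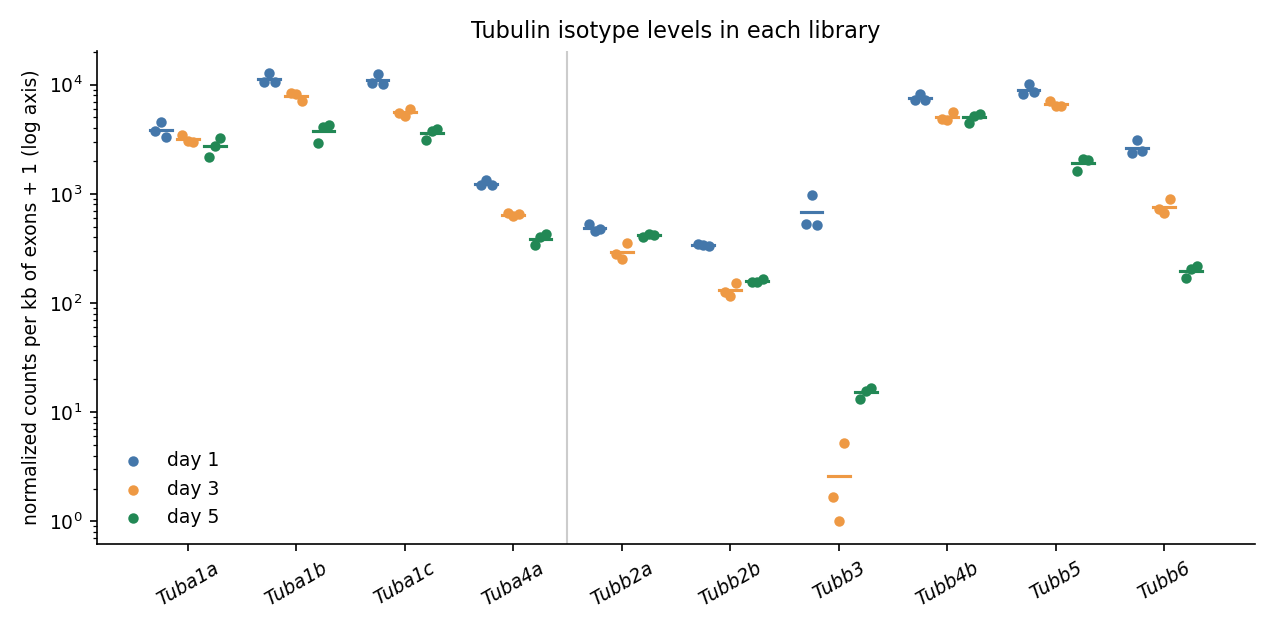
Level of each isotype in every library, as normalized counts per kilobase of exon plus 1 on a log axis, with points for libraries, horizontal lines for day means and colors for days. Tubb3 is the isotype with the widest range, from a day 1 mean of 678 per kilobase to 1.63 on day 3, and Tubb4b is above all other isotypes on day 5.

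Among the alpha isotypes, Tuba1b and Tuba1c carried most of the signal. Tuba1b, a broadly expressed isotype, was at 19642, 23854 and 19814 normalized counts on day 1, at 15822, 15293 and 13356 on day 3, and at 5482, 7638 and 8018 on day 5. Each day lay below the one before without overlap. The log2 difference was -0.51 ± 0.15 (SE of the fit) from day 1 to 3 and -1.09 ± 0.15 from day 3 to 5. Which step was larger depended on the processing. The steps were -1.02 and -0.51 with quantile normalization, and -1.23 and -1.11 once trends with length and GC were removed. Without the second day 1 library the first step was -0.42 and no longer passed the threshold.

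Tuba1c stood at 23841, 28374 and 23267 on day 1, at 12474, 11907 and 13705 on day 3, and at 7178, 8657 and 8890 on day 5. Its order of days was that of Tuba1b, and the larger step was the earlier one, with log2 differences of -0.98 ± 0.12 and -0.63 ± 0.12. Quantile normalization left -0.06 of the second step, which then did not pass. Tuba4a, whose product is known for lacking the terminal tyrosine that other alpha isotypes encode, was at 4406, 4933 and 4430, then 2441, 2295 and 2430, then 1243, 1484 and 1567. Its steps of -0.94 ± 0.10 and -0.74 ± 0.10 made it, of all pairs of isotypes, the closest in profile to Tuba1c, with a root mean square difference of 0.069 between centred log2 profiles over 9 libraries. Stk16, which shares its exon bases, did not follow that order: it was at 975, 1063 and 962 on day 1 and at 1216, 1381 and 1391 on day 5.

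Tuba1a, an alpha isotype best known from developing neurons, changed less than the other 3. It was at 6739, 8137 and 5956 on day 1, at 6284, 5460 and 5326 on day 3, and at 3900, 4917 and 5907 on day 5. Neighbouring days overlapped, and only days 1 and 5 were apart, by a log2 difference of -0.51 ± 0.16. That value was -0.39 without the second day 1 library and -0.14 with quantile normalization, and neither passed. Removal of trends with length and GC gave a larger fall, -1.26, where the median of all genes was -0.23. In that setting the difference from day 1 to 3 was -0.88, in place of -0.28. The small second step of -0.23 ± 0.16 turned to 0.21 with quantile normalization. Summed, Tuba1a, Tuba1b and Tuba1c were at 26108 ± 3075, 16613 ± 682 and 10084 ± 1665 per kilobase on days 1, 3 and 5. The sum depends less on the uncertain split between them, but not fully, as they are divided by different lengths. Reads shared with genes outside the sum remain uncertain.

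Copies of these genes also carried counts. Gm14150, which shares 31.8% of the windows of Tuba1b, was at 7876, 7645 and 6379 on day 1, at 2321, 2587 and 2937 on day 3, and at 1507, 1766 and 2359 on day 5. Its level was 34.8% ± 4.60 of that of Tuba1b on day 1, 17.9% ± 3.75 on day 3 and 26.7% ± 3.23 on day 5 (normalized counts, not per length). The ratio of copy to gene thus differed between days, with no overlap between the libraries. Whether these reads belong to the copy or to Tuba1b was not tested. Tubb4b-ps1 was at 14.4% ± 3.11, 12.2% ± 0.465 and 11.1% ± 1.50 of Tubb4b.

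Among the beta isotypes, Tubb5 and Tubb4b carried most of the signal. Tubb5, a beta isotype common to most cells, was at 27526, 33411 and 28592 normalized counts on day 1, at 23292, 21150 and 21386 on day 3, and at 5332, 6904 and 6809 on day 5. Its day 5 libraries lay far below the other 6, and the log2 difference was -0.44 ± 0.13 in the first step and -1.80 ± 0.13 in the second. With quantile normalization the steps were nearly equal, at -1.17 and -1.10. They were -0.79 and -2.13 once trends with length and GC were removed. No 100-base window of Tubb5 occurred unchanged in another gene of GRCm38, whereas read length and the mismatches allowed are not known here.

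Tubb4b, the axonemal isotype, was at 15064, 16998 and 15217 on day 1, at 10189, 9886 and 11637 on day 3, and at 9373, 10778 and 11310 on day 5. Day 1 was above both later days, by a log2 difference of -0.58 ± 0.11 in the first step. Days 3 and 5 overlapped, with a difference of -0.01 ± 0.11, which became 0.55 with quantile normalization. The multiciliated markers summed to at most 428 on day 3 and at least 6153 on day 5, and their part in the level of Tubb4b was not tested.

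Tubb6, a beta isotype present in many tissues, had the largest ratio of day 1 to day 5 after Tubb3. It was at 5753, 7615 and 5992 on day 1, at 1772, 1623 and 2159 on day 3, and at 413, 493 and 533 on day 5. The steps were -1.80 ± 0.15 and -1.94 ± 0.15 on the log2 scale, and day 1 was 13.5 times day 5.

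Tubb3 was present in every day 1 library and nearly absent afterwards. It was at 995, 1832 and 971 normalized counts on day 1, at 1.25, 0 and 7.89 on day 3, and at 22.8, 27.1 and 29.5 on day 5. The day 3 values rest on 9 reads in 3 libraries, and the library with none allows up to 4.02 normalized counts at 3 reads. The log2 difference was -8.80 ± 0.64 from day 1 to 3 and 3.33 ± 0.64 from day 3 to 5. Over the alternative settings the first ran from -9.66 to -6.85 and the second from 1.70 to 4.19. On day 1 the 11 markers of neurons and neuroendocrine cells summed to 35.8 to 41.5, with Nefl at 0, and their part in the Tubb3 level was not tested. On day 5 the neuroendocrine peptide gene Calca (194 ± 36.4) stood above its earlier level while Tubb3 was at 26.5 ± 3.42. The part of Calca in that value was not tested. Only 4 of the 11 markers passed the filter. Calca, Chga and Uchl1 did so only through their day 5 libraries, so that a rise was fixed by the filter. Snap25, the other one, was at 29.6 ± 4.49 on day 3 and 26.3 ± 10.1 on day 5 and was not called.

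The Tubb2 pair had its lowest level on day 3. Tubb2a was at 849, 730 and 766 on day 1, at 450, 404 and 571 on day 3, and at 641, 685 and 678 on day 5, with log2 differences of -0.73 ± 0.13 and 0.51 ± 0.13. Day 3 lay below both other days without overlap. Tubb2b, its near copy, was at 789, 783 and 760, then 287, 265 and 345, then 357, 355 and 377. Its first step was -1.38 ± 0.12; its second, 0.29 ± 0.12, was close to the threshold, lost its call in 16 of 18 alternative settings and turned to -0.05 once trends with length and GC were removed, where the median of all genes was -0.23. Summed, the pair was at 824 ± 41.2, 426 ± 71.7 and 573 ± 17.0 per kilobase on days 1, 3 and 5.

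**Figure D2:**
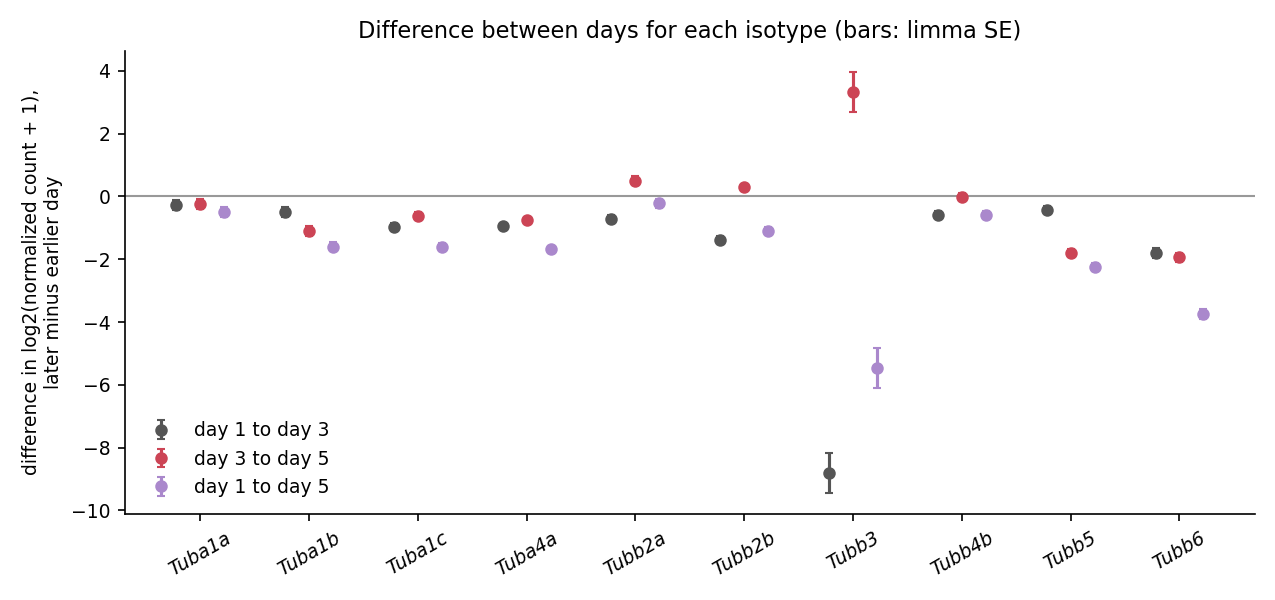
Difference in log2(normalized count + 1) between days for each isotype, as points with bars for the limma standard error and colors for the 3 comparisons. Differences from day 1 to day 5 run from -5.47 for Tubb3 to -0.22 for Tubb2a, and only Tubb2a, Tubb2b and Tubb3 lie above 0 from day 3 to day 5 (Tubb2b -0.05 once trends with length and GC were removed; Tuba1a 0.21 and Tubb4b 0.55 with quantile normalization).

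Shares of the tubulin sum do not depend on the size factor of a library, since each is a ratio within it. Per kilobase the families kept nearly the same proportion. Alpha isotypes made up 56.9% ± 0.63 of that sum on day 1, 57.3% ± 1.57 on day 3 and 57.4% ± 1.65 on day 5. On this scale the libraries of the 3 days overlapped. The ratio of alpha to beta per kilobase was 1.32 ± 0.03, 1.35 ± 0.08 and 1.35 ± 0.09. Both the proportion and its constancy rested on the division by length. Without it the alpha share was 51.3% ± 0.63, 50.3% ± 1.10 and 53.9% ± 1.42, highest on day 5. Over the same days the sum per kilobase differed 2.64-fold.

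Within the beta family the shares moved between Tubb5 and Tubb4b. Tubb5 held 18.7% ± 0.40 of the tubulin sum on day 1, 21.9% ± 0.61 on day 3 and 10.5% ± 0.38 on day 5. Tubb4b held 15.8% ± 0.62, 16.8% ± 1.48 and 27.7% ± 1.25, and its day 5 libraries, at 26.9% to 29.2%, lay above all 6 others. Of the beta isotypes alone, Tubb4b made up 36.6% ± 1.17, 39.4% ± 2.07 and 65.1% ± 0.79, and Tubb5 43.4% ± 0.37, 51.4% ± 3.04 and 24.7% ± 1.18. The day 5 gain in share of Tubb4b, 10.9 points, thus came with a level that overlapped that of day 3, while the share of Tubb5 fell by 11.4 points.

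Tubb6 went from 5.50% ± 0.27 to 2.52% ± 0.36 to 1.08% ± 0.02, with no overlap between days. Tubb3 held 1.38% ± 0.37 on day 1, 0.0054% ± 0.0076 on day 3 and 0.078% ± 0.0016 on day 5. Tubb2a held 1.02% ± 0.17, 0.980% ± 0.17 and 2.31% ± 0.26, so that days 1 and 3 overlapped and day 5 was above both. Tubb2b held 0.711% ± 0.070, 0.433% ± 0.058 and 0.880% ± 0.11, and the days did not overlap.

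Among the alpha isotypes, Tuba1a gained share at each step, from 8.0% ± 0.56 to 10.5% ± 0.71 to 14.9% ± 1.20, without overlap between days, although its level did not increase. Tuba1b held 23.4% ± 0.17, 26.3% ± 2.31 and 20.5% ± 1.34, highest on day 3 and lowest on day 5 with no overlap. The highest day 1 library was at 23.53% and the lowest day 3 library at 23.65%, nearly the same. Counts of its copy Gm14150, whose ratio to Tuba1b differed between days, are not in this share, and their part in it was not tested. Tuba1c held 22.9% ± 0.24, 18.4% ± 1.27 and 19.9% ± 0.55, and days 3 and 5 overlapped. Tuba4a held 2.59% ± 0.11, 2.14% ± 0.031 and 2.13% ± 0.045, again with days 3 and 5 overlapping. The share of Tuba1a, Tuba1b and Tuba1c together was 54.3% ± 0.70, 55.2% ± 1.60 and 55.3% ± 1.69.

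**Figure D3:**
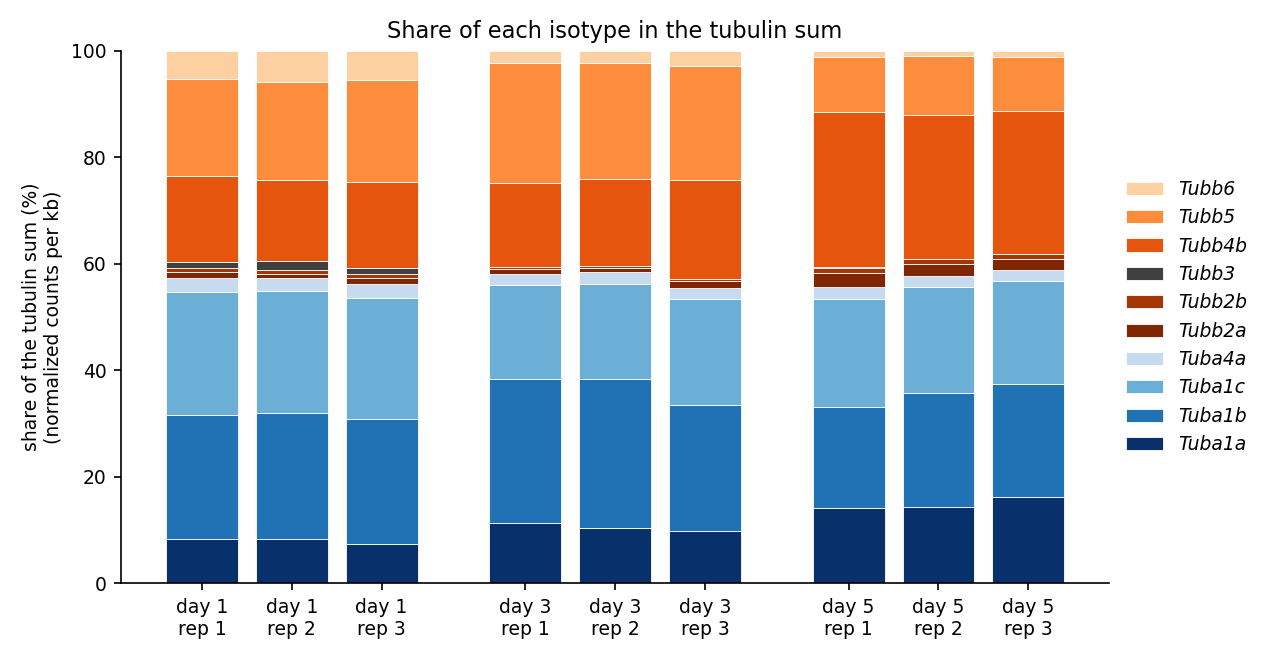
Share of each isotype in the tubulin sum of normalized counts per kilobase, as stacked bars to 100% for each of the 9 libraries, with alpha isotypes in blue below and beta isotypes in brown, orange and grey above. The boundary between the families stays between 55.5% and 58.9%, while Tubb4b is wider on day 5 (26.9% to 29.2%) than on days 1 and 3, and Tubb5 and Tubb6 are narrower.

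The order of levels per kilobase changed with the day. On day 1 it ran Tuba1b (11255 ± 1271), Tuba1c, Tubb5, Tubb4b, Tuba1a, Tubb6, Tuba4a, Tubb3, Tubb2a and Tubb2b (339 ± 6.77). Neighbours did not overlap except Tuba1b with Tuba1c and Tubb3 with Tubb2a. On day 3 Tuba1b (7906 ± 692) was followed by Tubb5, Tuba1c, Tubb4b, Tuba1a, Tubb6, Tuba4a, Tubb2a, Tubb2b and Tubb3, and only Tuba1c and Tubb4b overlapped. On day 5 Tubb4b (5022 ± 479) led without overlap, followed by Tuba1b, Tuba1c and Tuba1a, neighbours that overlapped, then Tubb5 (1908 ± 265), then Tubb2a and Tuba4a, which overlapped, then Tubb6, Tubb2b and Tubb3. The leader on days 1 and 3 rested on the length used. On day 1 it was Tuba1c by the longest transcript (22.4% of the sum) and Tubb5 without division by length (26.5%). On day 3 it was Tuba1b by the longest transcript (24.1%) and Tubb5 without division by length (31.0%, against 21.0% for Tuba1b). On day 5 Tubb4b led by all 3, with 27.7%, 31.0% and 26.3%.

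The proximal promoters of Tubb4b and Tubb5 are printed because their shares moved in opposite directions from day 3 to day 5. Each line is the 250 bases before the RefSeq start on GRCm38.p6, 5′ to 3′ along the minus strand, and capitals mark CCAAT or its reverse complement ATTGG and TATAAA or its reverse complement TTTATA. Tubb4b lies at chr2:25224703-25224952 and Tubb5 at chr17:35838302-35838551.
Tubb4b: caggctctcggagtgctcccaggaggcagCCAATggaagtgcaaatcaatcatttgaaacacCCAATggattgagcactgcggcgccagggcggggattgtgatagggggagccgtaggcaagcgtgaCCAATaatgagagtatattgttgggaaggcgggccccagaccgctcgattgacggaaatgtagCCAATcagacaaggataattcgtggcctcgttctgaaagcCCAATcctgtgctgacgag
Tubb5: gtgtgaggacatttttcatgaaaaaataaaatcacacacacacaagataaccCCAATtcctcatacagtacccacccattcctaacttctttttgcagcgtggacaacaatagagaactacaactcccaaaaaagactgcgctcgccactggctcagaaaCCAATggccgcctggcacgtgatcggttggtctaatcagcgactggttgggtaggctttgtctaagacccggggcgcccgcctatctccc

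Searched over 300 bases, to 50 past the start and on both strands, the promoter of Tubb4b held 5 CCAAT matches and that of Tubb5 2. CCAAT matched in 5 of the 8 isotype promoters found in the table and in 37.4% of all 32851 promoters of that length. TATAAA matched in 2 of 8, Tubb2a and Tubb4b, beside 13.6% of all, and the match of Tubb4b lies past the annotated start, beyond the bases shown. GGGCGG matched in 7 of 8, beside 35.7%. Overlaps between motifs were not removed, and a match describes letters, not a bound factor. The promoters of Tubb2b and Tubb6 were not analysed here.

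The genes with profiles most like an isotype were taken among 11613 genes by the root mean square difference of centred log2 profiles over the 9 libraries. For Tubb4b they were Mbip (0.041) and the purine salvage enzyme Hprt (0.041), and for Tubb5 the pyrophosphatase Ppa1 (0.068) and the nucleoporin Nup43 (0.070). Cct6a, a subunit of the chaperonin that folds tubulin, was nearest to Tuba1c (0.079), and Rsl1d1 to Tuba4a (0.070). For Tubb6 they were the DNA repair ligase Rad18 (0.13) and Peak1 (0.19), and for Tuba1b the noncoding genes Snhg5 and 1110038B12Rik (both 0.081). Tubb3 had no near neighbour: the closest were the pseudogene Idi1-ps1 (1.05) and Vcl (1.19), the focal adhesion protein vinculin, at 3065, 25.9 and 311 on days 1, 3 and 5. The nearest to Tuba1a were Armc6 (0.090) and Rpf1, to Tubb2a Hyls1 (0.11) and Gm9830, and to Tubb2b Akirin1 (0.11) and Gpsm1.

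The genes that fold, tag, nucleate and bind tubulin were taken from 7 lists, 146 genes in all, of which 130 were tested. From day 1 to day 3, 42 rose and 65 fell, beside 36.1% and 37.0% of all genes. From day 3 to day 5, 44 rose and 50 fell (33.8% and 38.5% of those tested, against 34.8% and 32.4% of all genes), and from day 1 to day 5, 39 rose and 63 fell (36.7% and 37.7% of all genes). Once trends with length and GC were removed, the second step had 29 that rose and 71 that fell, with a median of all genes of -0.23 in place of 0.06. Adjusted p-values below are from limma with Benjamini-Hochberg adjustment over all tested genes.

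Of the other tubulins, 4 of 8 were tested. Tuba3a, Tuba3b, Tubal3 and Tubb1 had 0 to 4 reads over the 3 libraries of any day. Tuba8 was at 108, 39.9 and 107 on day 1 and rose to 242 ± 40.8 on day 3 (adjusted p = 0.001), with 229 ± 20.1 on day 5. Tubb4a rose from 15.3 ± 5.64 to 38.1 ± 5.94 (adjusted p = 0.013; not passed without the first day 1 library or once trends with length and GC were removed) and fell to 8.22 ± 4.63 (adjusted p = 0.00083). Of the tubulins of the centriole, Tubd1 rose and then fell, at 159 ± 13.0, 227 ± 26.1 and 175 ± 11.2. Tube1 fell at both steps, from 212 ± 11.9 to 148 ± 21.1 to 89.9 ± 10.6, though its first step (adjusted p = 0.014) did not pass without the first day 3 library (adjusted p = 0.057) and was 0.06 once trends with length and GC were removed.

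Among 22 genes of tubulin folding, 9 rose and 8 fell from day 1 to day 3 (36.1% and 37.0% of all genes). From day 3 to day 5, 3 rose and 18 fell (34.8% and 32.4% of all genes). The medians of the steps were -0.03 and -0.85. The prefoldin subunit Pfdn5, which hands new chains to the chaperonin, rose from 1149 ± 60.3 to 7346 ± 1396 (adjusted p = 2e-06) and then fell to 4010 ± 1153 (adjusted p = 0.003). Arl2, a small GTPase that works with the tubulin cofactors, went from 220 ± 23.4 to 1557 ± 316 to 968 ± 259, a rise and a fall (adjusted p = 1.8e-06 and 0.014). The chaperonin subunit Cct8 fell at both steps, from 9937 ± 953 to 6146 ± 26.4 to 3380 ± 104 (adjusted p = 5.3e-05 and 1.9e-05). The 3 that rose from day 3 to day 5 were Tbce, Tbcel and Tbccd1, the first 2 being a cofactor that assembles the dimer and its relative; Tbce went from 356 ± 99.6 to 921 ± 102 (adjusted p = 7.4e-05).

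Of 12 genes of tubulin mRNA autoregulation, 4 rose and 6 fell in the first step (36.1% and 37.0% of all genes). In the second, 2 rose and 1 fell (34.8% and 32.4% of all genes). Those second-step counts were 0 and 8 once trends with length and GC were removed, 4 rose with quantile normalization, 1 rose with no filter, in the fit of these 2 days alone, or without the third day 1, the second day 3 or the second day 5 library, 0 without the first day 3 library and 5 without the third day 5 library, and 2 or 3 fell without the third day 3 or the first day 5 library. Ttc5, the sensor of the nascent chain, was at 474 ± 24.2, 655 ± 14.5 and 771 ± 25.9 on days 1, 3 and 5. It rose in the first step by a log2 difference of 0.46 ± 0.09 (adjusted p = 0.00074), and its second step of 0.23 ± 0.09 (adjusted p = 0.037) was -0.13 once trends with length and GC were removed. Scaper, its adaptor, was at 250 ± 11.3, 326 ± 40.3 and 414 ± 70.2 and rose from day 1 to day 5 (adjusted p = 0.001). Cnot1, the scaffold of the deadenylase recruited to these mRNAs, fell in the first step from 6366 ± 603 to 2426 ± 134 (adjusted p = 6.7e-06). It was then at 2114 ± 414 (adjusted p = 0.18). Steady RNA levels do not show how fast tubulin mRNA decays.

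Of 25 tested enzymes that modify tubulin, 14 rose and 2 fell from day 3 to day 5 (34.8% and 32.4% of all genes). The median log2 difference was 0.73. The first step had 7 rises and 8 falls (36.1% and 37.0% of all genes). Of those 14, Ttll6, Ttll9 and Agbl2 passed the filter only through their day 5 libraries, so that a rise was fixed by the filter, and without them 11 of 22 rose, with a median of 0.41. In the second step 4 fell with quantile normalization and 7 once trends with length and GC were removed. Ttll6 and Agbl2 had at most 4 reads over the 3 libraries of day 1 and 2 over those of day 3, and were at 139 ± 27.3 and 137 ± 43.4 on day 5. Ttll6 lengthens glutamate chains, and Agbl2 is a carboxypeptidase that trims glutamate from the tail. Atat1, the acetyltransferase of alpha tubulin within the microtubule lumen, rose at both steps, from 103 ± 10.5 to 201 ± 13.2 to 455 ± 33.6 (adjusted p = 9.9e-05 and 3.9e-05). Ttl, which puts the terminal tyrosine back on alpha tubulin, fell from 395 ± 14.2 to 291 ± 33.6 (adjusted p = 0.013) and was at 362 ± 51.9 on day 5 (adjusted p = 0.065). Ttll12 fell at both steps, to 658 ± 59.4 on day 5 from 1880 ± 117 on day 1. The summed level of the multiciliated markers was also higher on day 5, and their part in these counts was not tested.

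Of 21 nucleation genes, 7 rose and 12 fell in each step. Beside them, 36.1% and 37.0% of all genes rose and fell in the first step and 34.8% and 32.4% in the second. From day 1 to day 5, 1 rose and 16 fell (36.7% and 37.7% of all genes), and 2 rose without the first day 5 library. In the second step 2 rose once trends with length and GC were removed. Tubg1, the gamma tubulin of the nucleating ring, was at 1577 ± 120, 2096 ± 88.0 and 847 ± 92.6; its first step of 0.41 ± 0.10 (adjusted p = 0.004) was -0.41 once trends with length and GC were removed, and it fell in the second, with a log2 difference of -1.31 ± 0.10 (adjusted p = 2.7e-06). Tubg2 was at 57.7 ± 3.33, 71.7 ± 13.3 and 77.4 ± 15.8 and passed at neither step. Haus6, a subunit of the augmin complex that branches spindle microtubules, fell at both steps, from 1549 ± 133 to 400 ± 15.6 to 186 ± 31.0 (adjusted p = 1e-06 and 4.8e-05). The gene that rose from day 1 to day 5 was Mzt2, a small ring component, from 179 ± 16.5 to 410 ± 90.9 (adjusted p = 0.0001).

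Of 33 tested microtubule-associated and plus-end genes, 7 rose and 22 fell from day 1 to day 3 (36.1% and 37.0% of all genes). From day 3 to day 5, 16 rose and 7 fell (34.8% and 32.4% of all genes), and 13 fell once trends with length and GC were removed. Of these, Map7d2 among the 22 and Map1a and Eml1 among the 16 passed the filter only through the day on which they were higher. Map4, the broadly expressed stabilizer, fell at both steps, from 4443 ± 431 to 2076 ± 91.0 to 1204 ± 141 (adjusted p = 8.5e-06 and 0.00012). Tacc3, a spindle protein, fell in the second step, from 3945 ± 209 to 605 ± 70.0 (adjusted p = 5.9e-08), and its first-step difference of 0.08 ± 0.10 did not pass (-0.24 once trends with length and GC were removed). Mapre3, an end-binding protein, rose at both steps, from 272 ± 55.2 to 748 ± 49.9 to 1714 ± 71.2 (adjusted p = 7.1e-06 and 4.7e-05), whereas Mapre1, its relative, was at 4283 ± 323, 2611 ± 26.5 and 1948 ± 73.1. The first step of Mapre1, -0.71 ± 0.08, was 0.31 once trends with length and GC were removed. Map2, known from dendrites, fell from 183 ± 16.1 to 26.1 ± 4.09 and then rose to 501 ± 69.9 (adjusted p = 7.6e-07 and 1e-07).

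Among 13 tested destabilizers and severing enzymes, 5 rose and 8 fell in the first step (36.1% and 37.0% of all genes). In the second, 2 rose and 7 fell (34.8% and 32.4% of all genes). In the first step 3 rose without the second day 1 library, and likewise without the second day 3 library or with a replicate block. In that step 5 fell once trends with length and GC were removed. Stmn1, stathmin, which sequesters free dimers, rose from 2270 ± 84.6 to 6262 ± 607 and fell back to 1956 ± 432 (adjusted p = 1.2e-05 and 6.7e-06), so that days 1 and 5 overlapped. The mitotic depolymerase Kif2c fell at both steps, from 1162 ± 138 to 693 ± 25.4 to 216 ± 23.8 (adjusted p = 0.00026 and 1.5e-06), and so did the severing enzyme Fignl1, from 1141 ± 50.2 to 405 ± 69.7 to 128 ± 16.4. The katanin-like genes Katnal1 and Katnal2 were the 2 that rose in the second step, to 202 ± 26.6 (adjusted p = 3.6e-05) and 132 ± 24.5 (adjusted p = 0.002).

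**Figure D4:**
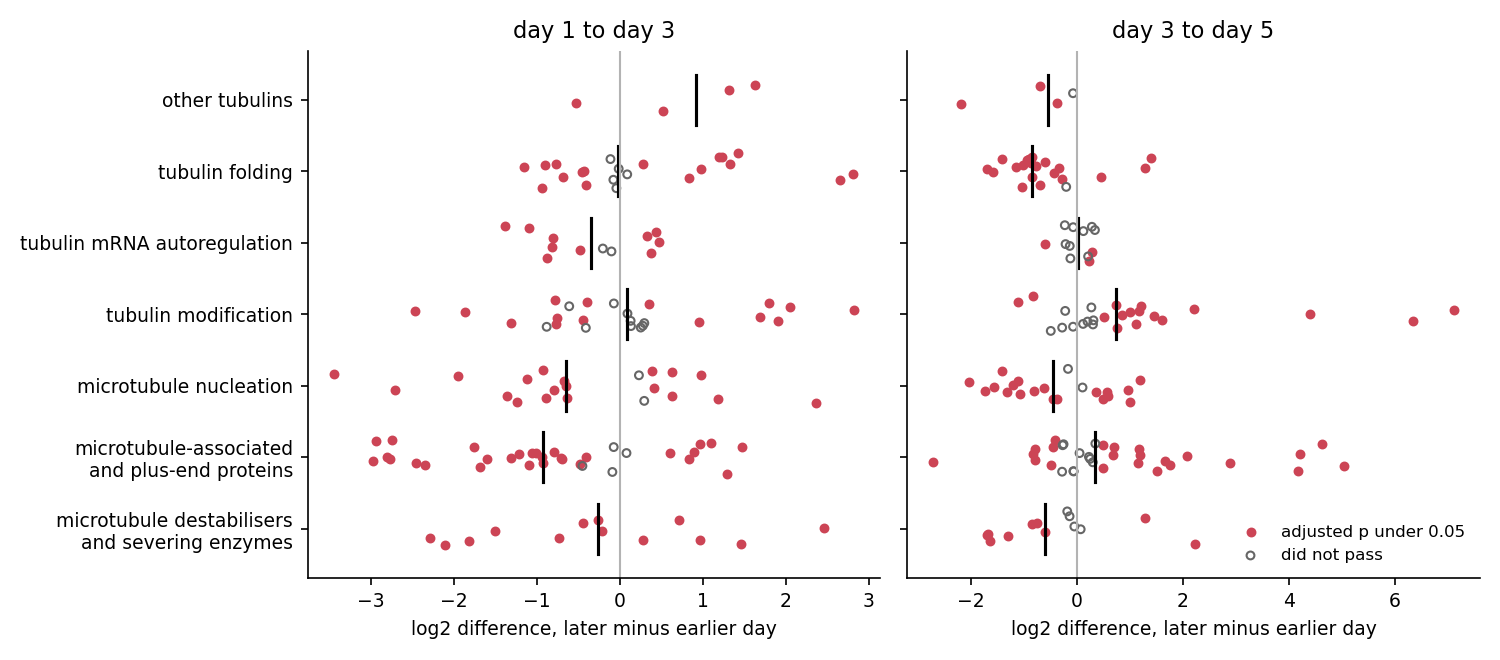
Difference in log2(normalized count + 1) from day 1 to day 3 (left) and from day 3 to day 5 (right) for each tested gene of the 7 lists, 1 row per list, with filled red points for genes past an adjusted p of 0.05, open points for the others and black lines for the list median. The medians of the folding genes go from -0.03 to -0.85, and those of the modification genes from 0.09 to 0.73.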

How the data were processed

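Libraries were made from total RNA, per the labels' protocols, and the submitters' processing notes name HISAT2 2.1.0, DESeq2 1.36.0 and GRCm39. The authors deposited 1 log2 value per gene and library: read counts over the size factor of the library, as log2 without a pseudocount. Cells without a value (297330) were read as 0, and 359 repeated lines were dropped. On the linear scale 100% of values were whole multiples of 1 read within 0.01 of a read, so reads and size factors were recovered.

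Levels are normalized counts, mean ± SD over 3 libraries. limma 3.58.1 in R 4.3.3 was fitted to log2(normalized count + 1), with 1 mean per day, a mean-variance trend, 6 residual degrees of freedom and two-sided tests with Benjamini-Hochberg adjustment at 0.05 over the 17338 genes that reached 10 normalized counts in 3 libraries or more. A log2 difference is on that scale, which understates the change of low genes. The test was tried on simulated data. Exon length for values per kilobase, windows and coding bases came from GENCODE M21 on GRCm38, matched by identifier, and promoters from RefSeq on GRCm38.p6, in which 8 of the 10 isotypes were found. A marker and some sequences are not reported here. The isotypes and lists were chosen with earlier results of these data known. Genes named beyond them were the largest rises and falls of each list with a mean of at least 100 on 1 of the days and no overlap, the 2 nearest profiles of each isotype, the other tubulins with Tubg1 and Tubg2, the cell type markers, and Ttc5, Atat1, Ttl, Stmn1 and Mapre1, whatever their result. Ttll9 and Map7d2 were added after their values were seen. Alternatives were another pseudocount, no or a stricter filter, the deposited log2 values alone, quantile normalization, removal of length and GC trends, 2-day fits, a replicate block, leaving out each library, other lengths, and voom on the recovered reads, which was added after seeing the data.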

Additional observations from a re-analysis of the deposited data

How the results depend on the processing

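The log2 difference of the tubulin sum kept its direction with another or no length, without Tuba1a, Tuba1b and Tuba1c, and without each library in turn. It was not computed with quantile normalization, removal of length and GC trends or voom. Over the fits without 1 library each it was -0.71 to -0.58, -0.81 to -0.62 and -1.48 to -1.29 for days 1 to 3, 3 to 5 and 1 to 5. In those fits the isotypes called lower were 8 to 9, 5 and 8 to 9, and higher 0, 2 to 3 and 0; list genes that rose were 36 to 42, 39 to 50 and 36 to 40, and fell 61 to 66, 45 to 54 and 58 to 64. With deposited values only, leaving out genes that hold a 0, 1 isotype was called higher from day 3 to 5, since Tubb3 leaves that fit and Tubb2b does not pass. Once trends with length and GC were removed, 29 list genes rose in that step and these differences turned sign. From day 1 to 3 they were Tube1 0.06, Tubg1 -0.41, Tubg2 -0.53, Mapre1 0.31, Ttll7 0.29, Agtpbp1 0.28, Akap9 0.30, Haus4 -0.32 and Tacc3 -0.24. From day 3 to 5 they were Tubb2b -0.05, Ttc5 -0.13, Cnot7 -0.25, Ttll4 -0.50, Agtpbp1 -0.55 and Camsap2 -0.15. From day 1 to 5 they were Cnot8 -0.25, Haus7 -0.37, Clip2 -0.25 and Eml3 -0.54. Quantile normalization turned Tubb4b to 0.55 and Tcp1 to 0.08 from day 3 to 5. The cause was not tested. Same-numbered libraries of different days correlated at -0.31 to 0.14 in their deviations, and differently numbered ones at -0.15 to 0.36. Each deviation is from a mean of only 3 libraries, so these values cannot show whether the numbers pair libraries. With a replicate block the list genes that rose and fell were 38 and 63, 42 and 47, and 39 and 63, 3 destabilizers rose from day 1 to 3 and 1 autoregulation gene from day 3 to 5, and Tubb2b did not pass in that step. Of 33 shares, 24 moved by more than 1 SD with the longest transcript as length and 25 without length. Tubb3 on day 3 rests on 9 reads, so its depth sets that value.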
